A study of Mus musculus with 15 samples.

Results

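Levels of 8 genes for EF-hand calcium-binding proteins of neurons were followed in single cells of the mouse prefrontal cortex (PFC). The genes were chosen by name, and all 8 were found by symbol among the 26145 genes listed: parvalbumin (Pvalb), calbindin 1 (Calb1), calretinin (Calb2), the N-terminal EF-hand proteins Necab1 and Necab2, hippocalcin (Hpca), neurocalcin delta (Ncald) and visinin-like 1 (Vsnl1). An EF-hand is a helix-loop-helix fold that holds a calcium ion. Pvalb, Calb1 and Calb2 are known mainly as mobile buffers, which bind calcium as it enters the cytosol and so shape how far and how long a calcium signal lasts. Hpca, Ncald and Vsnl1 belong to the neuronal calcium sensors, which expose a fatty acid anchor when calcium binds and then move to membranes. In the cortex, Pvalb is the classical marker of fast-spiking interneurons, Calb2 of a group of interneurons that often carry Vip, and Calb1 of many Sst interneurons and of pyramidal neurons in the upper layers.

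The libraries were made from male C57BL/6N mice. The 12 adult libraries (P60 in the study, 8 to 10 weeks in the labels) fall into 6 groups of 2, of mice that worked for intravenous cocaine or saline and were taken at the end of maintenance, after 48 h of withdrawal or after 15 d of withdrawal. The saline mice went through the same procedure, which includes food training and a jugular catheter, while the 3 libraries of P21 mice (3 weeks) had no treatment. Tissue of 2 mice was pooled for a library, and the 4 mice given for P21 do not divide evenly over 3 libraries, so their allocation is not known. The tests of age treat the 3 P21 libraries as replicates, and whether they are independent is not known either. One label names the nucleus accumbens as the tissue and the titles name the PFC. Of the 24822 adult cells only 1175 were inhibitory neurons, while most accumbens neurons are known to be inhibitory. Each age has libraries of its own, so age and library preparation cannot be told apart.

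A library held 1055 to 4439 retained cells and 8375172 to 42892922 unique molecular identifiers (UMIs, each a count of 1 captured transcript), with a median of 3426 to 11334.5 UMIs per cell. Cell classes and the 26 excitatory (Exc) and 12 inhibitory (Inhib) clusters are those the authors deposited, with P21 cells named from their likeness to adult clusters. Class and cluster disagreed for 33 adult cells (0.133%) and 459 P21 cells (4.36%), and no more than 27 cell barcodes were shared by any pair of libraries. Summed over its 4 genes, the inhibitory marker list stood at 3445 to 5461 CPM (counts scaled to a common UMI total of 1000000 per library and cell group) in inhibitory neurons of adult libraries and at no more than 7.06 CPM in excitatory neurons. Levels below are CPM of the 26047 genes left after mitochondrial and ribosomal protein genes were taken out, and they are compared for 1 gene at a time. The 3' counting used here has no length correction, so levels of different genes are not compared.

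The genes are spread over 4 chromosomes of the mouse genome build NCBIM37, where all 8 are annotated as protein coding. Pvalb lies at chr15:78021544-78036830 on the minus strand and Ncald on the same chromosome at chr15:37295930-37722325, where 8 other genes overlap it. Calb1 lies at chr4:15808411-15835211 on the plus strand, and Necab1 on the minus strand of that chromosome at chr4:14879392-15076941. Hpca is also on that chromosome, at chr4:128788814-128799280 on the minus strand. The gene Tmem54 overlaps the 3' end of Hpca on the other strand, and Gm11837 lies within 300 bases of the 3' end of Necab1, so their reads could be told apart only if strand was used in counting, a setting not given in the sources used here. Calb2 lies at chr8:112661402-112692110, Necab2 at chr8:121970619-121996540 and Vsnl1 at chr12:11332053-11443455.

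Promoters from RefSeq were at hand for 4 of the 8 genes (8 promoters, build GRCm38.p6, not the build of the counts). The first listed promoters of Hpca and Vsnl1 are shown because both genes were called higher with age in many excitatory clusters. Each runs from 250 bases before the start of transcription to 50 after it on the minus strand, at chr4:129121698-129121997 for Hpca and at chr12:11436529-11436828 for Vsnl1, and capitals mark the GC box.
Hpca: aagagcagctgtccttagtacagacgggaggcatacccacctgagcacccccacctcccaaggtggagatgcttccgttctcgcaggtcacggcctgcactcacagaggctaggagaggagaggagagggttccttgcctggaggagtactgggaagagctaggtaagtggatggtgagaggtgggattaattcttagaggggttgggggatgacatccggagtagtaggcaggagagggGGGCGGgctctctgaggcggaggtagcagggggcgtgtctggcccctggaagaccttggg
Vsnl1: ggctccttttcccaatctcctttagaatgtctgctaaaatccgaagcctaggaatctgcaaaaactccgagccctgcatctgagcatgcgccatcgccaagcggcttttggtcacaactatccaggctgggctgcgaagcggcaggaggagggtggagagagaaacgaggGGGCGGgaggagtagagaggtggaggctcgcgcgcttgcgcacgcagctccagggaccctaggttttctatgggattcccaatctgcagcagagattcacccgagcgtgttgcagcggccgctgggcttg
A GC box is a short G-rich element bound by factors of the Sp family, searched here as GGGCGG on both strands. Both promoters held 1 match, and at least 1 was found in 35.7% of all 32851 mouse promoters of this length. The second and the third listed promoters of Hpca held 4 and 0, the second of Vsnl1 held 0, that of Necab2 held 1 and both of Pvalb held 0. The cyclic AMP response element TGACGTCA was found in 588 promoters (1.79%) and in none of the 8 listed here.

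The levels across adult clusters divided the 8 genes by how widely they were used. Vsnl1, Ncald and Hpca were present in every neuronal cluster with enough cells, Necab1 was nearly as wide, and Pvalb, Calb1, Calb2 and Necab2 fell to near 0 CPM in some clusters. These levels are a description with no test, since the authors built the clusters from the same cells and used markers such as Calb1 to name them. In all, 31 clusters had at least 10 cells in at least 3 adult libraries, which gives 30 neighbours in the order of each gene. Inhib_6, named below for Pvalb, and Inhib_4, named below for Calb2, had too few cells and are not among them. For most neighbours the gap was smaller than the larger standard deviation (SD) over libraries, and it exceeded that SD for 3 pairs for Ncald, for 2 pairs each for Calb1, Calb2 and Hpca, for 1 pair each for Necab1 and Necab2 and for 0 pairs for Pvalb and Vsnl1.

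**Figure D1:**
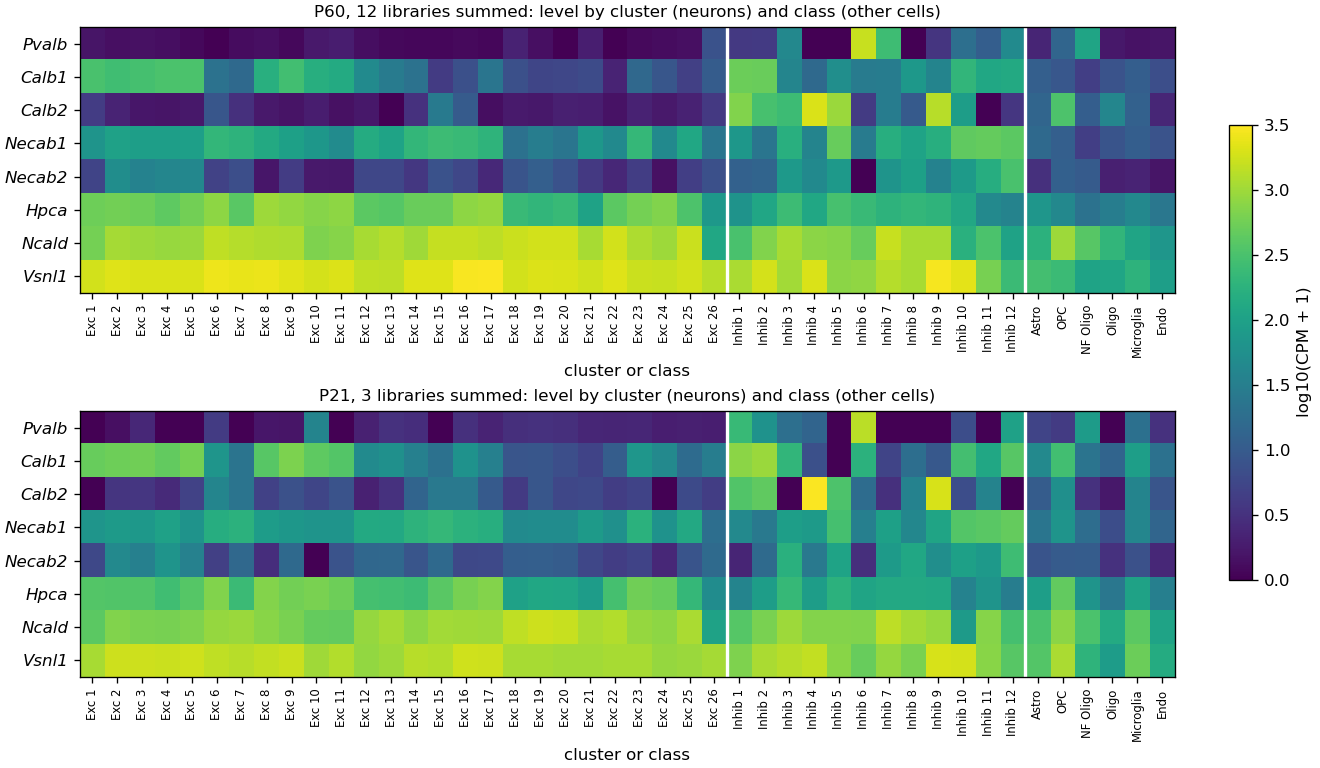
Level of the 8 genes (rows) in each neuronal cluster and in each class of other cells (columns), as colour on a log10(CPM + 1) scale, with libraries summed at P60 (top) and P21 (bottom). Vsnl1, Ncald and Hpca fill the neuronal columns, while Pvalb, Calb1 and Calb2 are bright in few clusters, among them Inhib_6 for Pvalb and Inhib_4 for Calb2.

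Among the buffers, adult Pvalb was highest in the inhibitory clusters Inhib_6 and Inhib_7. In Inhib_6, 528 UMIs in 44 adult cells gave a pooled level of 1611 CPM (95% Poisson interval 1476 to 1754, which like all such intervals here covers counting error only), and at P21 1442 UMIs in 162 cells gave 1386 CPM (1316 to 1460). At least 1 Pvalb UMI was seen in 68.2% of adult and 69.1% of P21 cells of Inhib_6, against 0.252% of adult endothelial cells, which should lack the gene. Inhib_7 held 230 ± 202 CPM (SD, n = 9 libraries), and these UMIs sat in few cells. Of its 392 adult cells 42 had a Pvalb UMI and 27 had 5 or more, and 92.2% of its 877 Pvalb UMIs came from 20 cells. The highest mean of an excitatory cluster was 7.81 ± 16.2 CPM in Exc_26 (n = 8).

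Calb1, the calbindin buffer, was high in both Sst clusters and in 1 block of excitatory clusters. It stood at 546 ± 139 CPM in Inhib_2 (n = 6), where Sst was at 22915 CPM, and at a pooled 519 CPM in the 36 adult cells of Inhib_1, where Sst was at 40329 CPM. Exc_4, Exc_5, Exc_1, Exc_3, Exc_9 and Exc_2 followed with means of 327, 321, 316, 293, 266 and 247 CPM, and the order among them was within their SDs. The next cluster, Exc_8, stood at 138 CPM, and this step of 109 CPM exceeded the larger SD of 81.2. In the same 6 clusters the pooled level of Cux2, a transcription factor of upper-layer neurons, ran from 83.1 to 237 CPM, and in Exc_22, where Calb1 was lowest of the 31 clusters at 1.05 ± 1.68 CPM (n = 9), Cux2 was at 0.730 CPM.

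Calb2 was highest in Inhib_4 and Inhib_9, which are not the only clusters the study names by Vip. Its pooled level was 2012 CPM in the 74 adult cells of Inhib_4, its mean was 1587 ± 933 CPM in Inhib_9 (n = 6), and Vip stood at 19291 and 17728 CPM in these clusters. Inhib_5, a cluster with Reln at 525 CPM, held 1147 ± 833 CPM of Calb2 (n = 3). Among excitatory clusters Calb2 was highest in Exc_15, at 23.8 ± 14.0 CPM (n = 8), and the step down to Exc_6 at 6.86 CPM exceeded the larger SD.

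In single inhibitory cells the 3 classical buffers overlapped in part, counted at 2 or more UMIs without thinning to 1 depth. Of 1175 adult inhibitory neurons, 66 had Pvalb, 159 Calb1 and 196 Calb2, and 794 had none of the 3. Pvalb and Calb2 shared 2 adult cells and 0 of the 956 P21 cells. Calb1 and Calb2 shared 29 adult cells, which is 18.2% of the Calb1 cells and 14.8% of the Calb2 cells, and Pvalb and Calb1 shared 10, which is 15.2% of the Pvalb cells. At P21, 119 cells had Pvalb, 358 had Calb1 and 174 had Calb2, and 44 cells had both Pvalb and Calb1 (37.0% of the Pvalb cells). Calb1 and Calb2 shared 74 P21 cells, which is 20.7% of the Calb1 cells and 42.5% of the Calb2 cells. These shares were not compared between ages, since depth and cluster makeup differ. The median depth was 8051 UMIs per adult and 6921.5 per P21 inhibitory cell.

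Necab1 and Necab2 encode EF-hand proteins of the synaptic cytosol whose roles are less settled. Among the 31 clusters Necab1 was highest in Inhib_5, at 420 ± 77.8 CPM (n = 3), and the gap of 172 CPM to Exc_15 (248 ± 27.0 CPM, n = 8) exceeded the larger SD. Its lowest means were 17.6 ± 9.90 CPM in Exc_18 (n = 7) and 19.1 ± 13.8 CPM in Exc_20 (n = 8), which are both clusters with Foxp2 and Syt6, genes of layer 6. Necab2 was low in most excitatory clusters, down to 0.364 CPM in Exc_24, but stood at 51.5 ± 14.9 CPM in Exc_2, 43.0 ± 13.6 CPM in Exc_5 and 39.4 ± 9.38 CPM in Exc_4 (n = 12 each), which are among the Calb1 clusters. Among inhibitory clusters its pooled level was highest in Inhib_12, at 315 CPM in only 30 adult cells.

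The sensors were broad but not even. Among the 31 clusters, Hpca was highest in Exc_8 at 972 ± 71.7 CPM (n = 11) and Exc_9 at 896 ± 136 CPM (n = 12), and lowest in Exc_26 at 82.2 ± 26.9 CPM (n = 8) and Exc_21 at 95.03 ± 23.5 CPM (n = 12). Ncald was highest in Exc_22 at 1861 ± 158 CPM (n = 9), followed by the layer 6 clusters Exc_19, Exc_20 and Exc_18 within their SDs. Among the 31 it was lowest in Exc_26 at 130 ± 57.6 CPM (n = 8), where the step up to Exc_1 at 550 ± 80.7 CPM (n = 11) was the widest gap of its order relative to the SD. Among the same clusters Vsnl1 had the narrowest range, from 705 ± 90.3 CPM in Inhib_5 (n = 3) to 3114 ± 277 CPM in Exc_17 (n = 9), and no neighbours in its order differed by more than their SD. Exc_26, the cluster with Pou3f1 at 98.1 CPM, was thus low for both Hpca and Ncald. Of the clusters with too few cells for this order, Inhib_12 (30 adult cells) was lower still, with pooled levels of 35.6 CPM for Hpca, 102 CPM for Ncald and 244 CPM for Vsnl1.

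Genes whose adult pattern was most like that of each member were named by the Pearson correlation of mean log2(CPM + 1) over these 31 clusters, among 10673 genes. These are descriptions without a test, over clusters that share libraries. Pvalb was most like Ddr2 (r = 0.957), Slc35d3 (0.955) and Wif1 (0.946). Inhib_6 is not among the 31, where the highest Pvalb means were 230 CPM in Inhib_7 and 36.2 CPM in Inhib_3. The likeness of Pvalb thus leaves out its highest cluster. Hpca was most like Gstt1 (0.926), Cpne9 (0.911) and BC030499 (0.890). Calb2 was most like Npas3 (0.905), Enho (0.899) and Ldoc1 (0.899), Calb1 like Ddr1 (0.857), C630043F03Rik (0.808) and Smg6 (0.804), and Vsnl1 like Saal1 (0.876), Cct7 (0.843) and Gnpnat1 (0.806). Necab2 followed Luzp2 (0.856), Zfp608 (0.824) and Slc25a23 (0.823), Necab1 followed Dgcr6 (0.795), Zfp804b (0.789) and Zgpat (0.782), and the closest genes to Ncald, 1810037I17Rik (0.656), Ostc (0.641) and Serpinb9 (0.629), were less alike.

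Some members were also read in glia. Calb2 was at 347 ± 77.2 CPM in adult oligodendrocyte precursor cells (OPC, n = 11 libraries), where its lowest library stood at 186 CPM, against 1.26 ± 1.49 CPM in endothelial cells (n = 12). A Calb2 UMI was seen in 60.7% of 768 adult OPC and in 0.533% of endothelial cells, at median depths of 3405 and 4516.5 UMIs, and after thinning to 2000 UMIs per cell in 43.6% and 0.196%. Ncald was at 955 ± 90.9 CPM in OPC, with a UMI in 81.8% of thinned cells against 7.74% in endothelial cells. Pvalb was at 96.8 ± 55.3 CPM in adult newly formed oligodendrocytes (NF Oligo, n = 11), between 34.0 and 212 CPM, and at 78.9, 88.7 and 80.7 CPM in the 3 P21 libraries. After thinning, 18.5% of these adult cells and 14.4% of the P21 cells had a Pvalb UMI, against 0.0561% and 0.249% of endothelial cells. Unlike in Inhib_6, Pvalb was spread thinly here, with 193 UMIs in 123 of 336 adult cells and 5 or more in 3 of them.

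The change between P21 and P60 asks how these genes move through adolescence. It was tested in each cluster and class with edgeR's quasi-likelihood test on UMIs summed per library, 3 P21 libraries against the saline libraries, with Benjamini-Hochberg adjustment over all genes of that cluster (called adjusted p below). A gene was called at an adjusted p under 0.05 and a change above 1.5-fold, and changes are log2 values of P60 over P21. In the 26 excitatory clusters all calls of the 3 sensors were higher at P60 and all calls of Calb1 lower. Of 127 tests of members, 47 were called higher and 16 lower at P60, where 4.56% of all gene tests in these clusters were called higher and 6.71% lower. The median change of all genes lay between -0.02 and 0.02 in every cluster, and that of the members was 0.45. The test on summed cells does not separate transcripts per cell from the share of cells that carry the gene. In Exc_10 a Calb1 UMI was seen in 75 of 93 P21 cells and 664 of 1022 cells of all adult libraries. The medians in these cells were 3 and 2 UMIs. A Vsnl1 UMI was seen there in 91 P21 and 1017 adult cells, with medians of 6 and 18. These counts were not thinned to 1 depth.

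Vsnl1, a sensor that regulates membrane traffic and receptor cycling, rose in 20 of 26 excitatory clusters, and its log2 change was above 0 in all 26. The median change was 0.88, with a range from 0.15 to 1.21. In Exc_22 the P21 libraries stood at 1092, 1155 and 1032 CPM and the saline libraries at 2030, 2250, 2299, 2515 and 2801 CPM. The 2 ages did not overlap, and Vsnl1 rose by 1.21 ± 0.12 (SE; edgeR adjusted p = 1.5e-07). In Exc_17, the cluster with the highest adult level, it rose from 1676, 1716 and 1728 CPM to between 3053 and 3515 CPM in 5 saline libraries (0.93 ± 0.12, edgeR adjusted p = 2.5e-06). The 6 clusters in which it was not called were Exc_2, Exc_3, Exc_4, Exc_5, Exc_9 and Exc_26. In Exc_5 the P21 libraries stood at 1437, 2284 and 1963 CPM and the saline libraries between 1718 and 2467 CPM, with a change of 0.15 ± 0.16. All but Exc_26 of these 6 are among the clusters with the most Calb1, but Vsnl1 was called in Exc_1, which is also among those. In 24 of the 26 clusters Vsnl1 had an unadjusted p under 0.05 by edgeR, so most of the 6 fell short of the thresholds only. A link to Calb1 was not tested.

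Hpca, the sensor first described in hippocampal pyramidal cells, was called higher in 14 of 26 excitatory clusters and lay above 0 in all 26, with a median change of 0.60 and a range from 0.05 to 1.04. In Exc_14 its P21 levels were 290, 234 and 233 CPM, against a lowest of 401, a median of 491 and a highest of 623 CPM in 6 saline libraries. No saline library reached down to a P21 library, and the rise was 1.04 ± 0.14 (edgeR adjusted p = 6.9e-06). In Exc_8, where adult Hpca was highest, P21 libraries stood at 742, 711 and 676 CPM and saline libraries at 872, 931, 939, 975 and 988 CPM, a difference of 0.43 ± 0.11 that passed on p (edgeR adjusted p = 0.0064) but not on fold.

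Ncald, the neurocalcin sensor, was called higher in 12 of 26 clusters and lay above 0 in all 26, with a median of 0.59 between 0.06 and 0.84. In Exc_9 the P21 libraries stood at 582, 662 and 702 CPM and the 6 saline libraries at a lowest of 684, a median of 1232 and a highest of 1333 CPM. One saline library thus lay among the P21 libraries, and the rise was 0.84 ± 0.15 (edgeR adjusted p = 0.00072). In Exc_22, with the highest adult level, Ncald rose from 1229, 1463 and 1186 CPM to between 1695 and 2213 CPM (0.66 ± 0.12, edgeR adjusted p = 0.00018). Over the 26 clusters the order of the levels was much alike at both ages for Hpca (Pearson r of log2 levels 0.975) and Ncald (0.970), and less so for Vsnl1 (0.645). These correlations are descriptions across clusters that share libraries. P21 cells were named by likeness to adult clusters, so some agreement of the ages is built in. Vsnl1 also had the narrowest range of adult levels, and the part of this in its lower r was not tested.

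**Figure D2:**
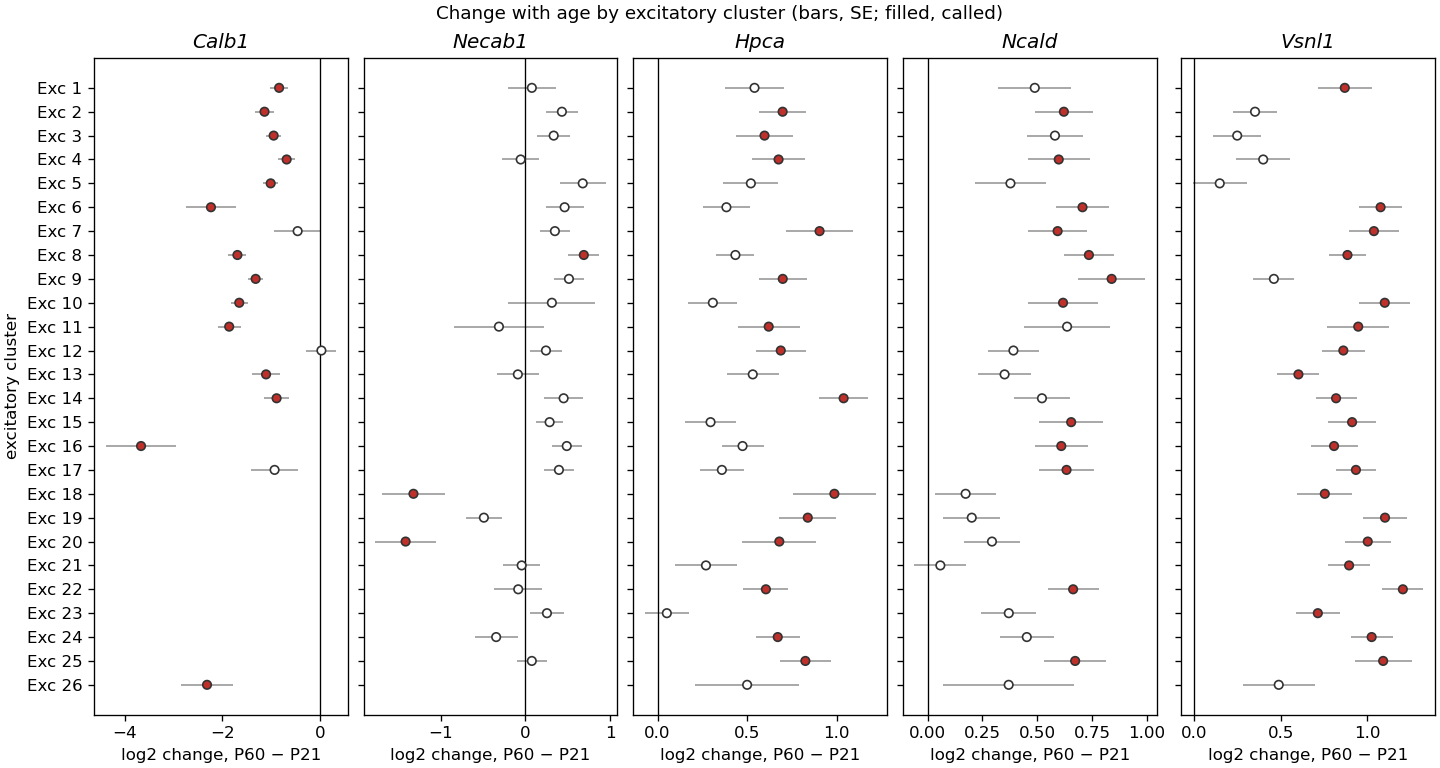
Log2 change from P21 to P60 (x axis) of Calb1, Necab1, Hpca, Ncald and Vsnl1 in each excitatory cluster (y axis), with bars for the SE and filled points for called changes. Hpca, Ncald and Vsnl1 lie right of 0 in all 26 clusters, and Calb1 lies left of 0 in 16 of 17.

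Calb1 moved the other way. It was called lower in 14 of 17 excitatory clusters tested, with a median change of -1.11 and 16 values below 0. In Exc_10 the P21 libraries stood at 492, 341 and 399 CPM and the 6 saline libraries at a lowest of 74.8, a median of 131 and a highest of 176 CPM. The ages did not overlap, and the change was -1.66 ± 0.18 (edgeR adjusted p = 2.5e-08). In Exc_8 Calb1 stood at 426, 329 and 408 CPM at P21 and at 59.7, 106, 108, 129 and 162 CPM at P60, which is a change of -1.69 ± 0.18 (edgeR adjusted p = 9.5e-06). In Exc_9 it changed by -1.32 ± 0.15 and in Exc_5 by -1.01 ± 0.16, again with every saline library below every P21 library. The change was smaller in Exc_4, the excitatory cluster with the highest adult mean (P21 384, 548 and 379 CPM, saline 197 to 343 CPM, -0.68 ± 0.17, edgeR adjusted p = 0.0099). It was not called there without P21 replicate 2 (-0.48, edgeR adjusted p = 0.16) or without saline 15 d replicate 1 (-0.58, under the fold), nor with all 12 adult libraries in place of the saline ones (-0.44, edgeR adjusted p = 0.40).

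The 3 clusters without a Calb1 call were Exc_7 (-0.46), Exc_17 (-0.93) and Exc_12. In Exc_12 P21 libraries stood at 60.8, 33.8 and 41.9 CPM and saline libraries between 28.5 and 80.9 CPM, with a change of 0.03 ± 0.31. The widest change, -3.67 ± 0.73 in Exc_16 (edgeR adjusted p = 0.014), came from low levels of 97.3, 29.2 and 28.5 CPM at P21 and 0 to 30.1 CPM at P60, which overlap. The order of Calb1 over clusters was kept, with r = 0.955 between ages over 26 clusters. Across all clusters the deposited P21 cluster names come from likeness to adult cells, and how far this naming moves a level was not tested.

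The other members had few calls in excitatory clusters. Necab1 rose in Exc_8, from 73.0, 104 and 83.7 CPM to 108, 123, 145, 157 and 175 CPM (0.69 ± 0.18, edgeR adjusted p = 0.011), and this was not called without P21 replicate 1 (0.54, edgeR adjusted p = 0.063) or P21 replicate 3 (0.67, edgeR adjusted p = 0.051). It fell in the layer 6 clusters Exc_18 and Exc_20. In Exc_20 its P21 levels were 39.8, 62.6 and 52.7 CPM and its saline levels 6.54, 18.9, 23.0 and 29.4 CPM (-1.41 ± 0.36, edgeR adjusted p = 0.015, and 0.13 without saline 15 d replicate 1). In Exc_18 they were 38.3, 65.6 and 54.4 CPM against 9.04, 15.8 and 36.0 CPM (-1.32 ± 0.37, edgeR adjusted p = 0.033, and 0.28 without saline 15 d replicate 1). Leaving out P21 replicate 2, P21 replicate 3 or saline 15 d replicate 2 also ended the call in Exc_18. Of its 25 tests Necab1 had these 3 calls by edgeR, and 9 tests had an unadjusted p under 0.05. Necab2 had 0 calls by edgeR in 5 tests, with changes from -0.74 (Exc_4, edgeR adjusted p = 0.058, the one at an unadjusted p under 0.05) to 0.21. Calb2 had 0 in 2 tests, at -0.32 and -1.39 with neither at that p, and Pvalb was too low to test in any excitatory cluster.

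Only 3 inhibitory clusters had enough cells at both ages, Inhib_2, Inhib_7 and Inhib_9. Of 17 member tests there 1 was called higher and 0 lower by edgeR, where 0.294% of all gene tests were called higher and 1.35% lower, and 6 had an unadjusted p under 0.05. DESeq2 called 2 higher and 0 lower. Vsnl1 rose in Inhib_7 from 887, 851 and 855 CPM to 1218, 1241, 1463 and 1574 CPM (0.62 ± 0.15, edgeR adjusted p = 0.019). The call was lost without P21 replicate 2 or 3 or saline 48 h replicate 1, with edgeR adjusted p between 0.056 and 0.070. Calb1 in Inhib_2, an Sst cluster, stood at 1025, 938 and 821 CPM at P21 and 396, 500 and 802 CPM at P60, and its change of -0.79 ± 0.22 did not pass (edgeR adjusted p = 0.10).

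Pvalb had 0 UMIs in the 76 P21 cells of Inhib_7, which allows a share of up to 3.95% of cells with a UMI, a limit that covers counting error only and not the spread between libraries. The 4 saline libraries of P60 stood at 109, 331, 380 and 629 CPM, and none of them was as low as a P21 library. The pooled saline level was 343 CPM in 201 cells. Because these UMIs sit in few cells, no fold is given, and the edgeR test did not pass (adjusted p = 0.23). In the Sst clusters the pooled Pvalb counts were larger at P21. In Inhib_1, 98 P21 cells held 168 Pvalb UMIs (225 CPM, interval 192 to 261) and 36 adult cells held 1, and in Inhib_2, 341 P21 cells held 146 (60.5 CPM, interval 51.1 to 71.1) and 112 adult cells held 3 (2.88 CPM, interval 0.594 to 8.41). At P21, 34 cells of Inhib_2 carried these UMIs and 10 of them had 5 or more. These are counts without a test between libraries.

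In the whole classes, 7 of 40 member tests were called higher and 9 lower, where 7.63% of all gene tests in the 8 classes were called higher and 8.79% lower. In the excitatory class 8.02% of genes were called higher and 10.1% lower. There Hpca rose from 349, 327 and 304 CPM to a lowest of 494, a median of 545 and a highest of 602 CPM in 6 saline libraries (0.78 ± 0.09, edgeR adjusted p = 7.2e-05). Vsnl1 rose from 1229, 1388 and 1282 CPM to between 1923 and 2448 CPM, with a median of 2169 (0.80 ± 0.11, edgeR adjusted p = 0.00022). Neither gene had a saline library at or below a P21 library. Ncald differed by 0.35 ± 0.11 (edgeR adjusted p = 0.028), under the fold.

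Calb1 fell in the excitatory class from 215, 167 and 134 CPM to a lowest of 51.0, a median of 84.8 and a highest of 118 CPM (-0.98 ± 0.29, edgeR adjusted p = 0.028). This call rested on single libraries, and was lost without P21 replicate 1 (-0.79, edgeR adjusted p = 0.11), P21 replicate 2 (-1.01, 0.070) or saline 15 d replicate 2 (-0.93, 0.056). Calb2 fell from 4.80, 8.79 and 8.68 CPM to between 0.224 and 3.63 CPM (-1.78 ± 0.45, edgeR adjusted p = 0.012). These levels are low. Among excitatory cells whose class and cluster agree, 5658 P21 cells held 325 Calb2 UMIs and 14433 cells of all adult libraries held 494. Necab1 (0.43, edgeR adjusted p = 0.10) and Necab2 (-0.46, edgeR adjusted p = 0.13) did not pass. Cluster shares in this class differed between the ages. Exc_20 held 199, 129 and 167 cells in the P21 libraries and 1 to 53 in saline libraries. Exc_9 held 290, 111 and 107, and 14 to 56. The class held 1496 to 2327 and 321 to 2550. Adult means in Exc_20 and Exc_9 were 199 and 896 CPM for Hpca, and 3.53 and 266 CPM for Calb1. The part of these shares in the class changes was not tested.

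**Figure D3:**
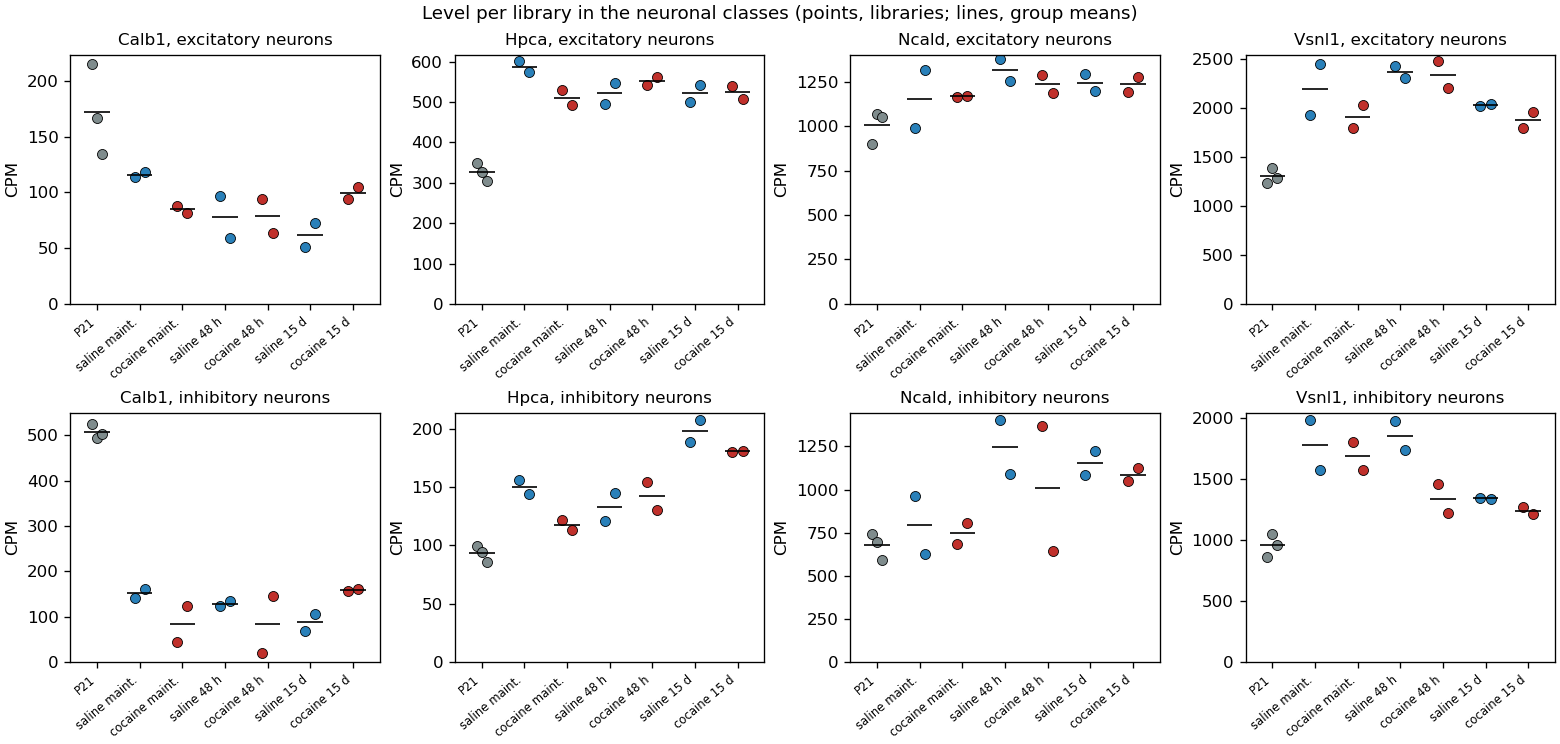
Level in CPM (y axis) of Calb1, Hpca, Ncald and Vsnl1 per library (points) by age and treatment group (x axis), in excitatory (top) and inhibitory neurons (bottom), with lines at group means. In both classes every P60 library is above every P21 library for Hpca and Vsnl1 and below every P21 library for Calb1, while for Ncald the ages overlap.

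In the inhibitory class 5.84% of genes were called higher and 8.27% lower. Calb1 fell from 524, 494 and 504 CPM to a lowest of 67.9, a median of 129 and a highest of 161 CPM in the saline libraries, a change of -2.14 ± 0.19 (edgeR adjusted p = 6.1e-06) with no overlap of the ages. The makeup of the class moved with age as well. Inhib_2, an Sst cluster high in Calb1, made up 34.9% of P21 inhibitory neurons (31.1% to 38.3% by library) and 9.36% of adult ones (0% to 14.6%), while Inhib_7 went from 7.95% to 33.4%. The part of these shares in the class change was not tested. Within Inhib_2 the change was -0.79.

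Hpca rose in the inhibitory class from 99.1, 94.4 and 85.8 CPM to between 121 and 207 CPM (0.81 ± 0.15, edgeR adjusted p = 0.0013), and Vsnl1 from 862, 1050 and 957 CPM to between 1334 and 1981 CPM (0.79 ± 0.15, edgeR adjusted p = 0.0013). Ncald rose by 0.67 ± 0.19 (edgeR adjusted p = 0.026), from 741, 693 and 591 CPM to a range of 629 to 1404 CPM that overlaps. Its call was lost without P21 replicate 2 or 3 or any of 3 saline libraries (both of 48 h and 15 d replicate 2), with changes between 0.56 and 0.67. Within Inhib_2, Inhib_7 and Inhib_9 the changes of Ncald were 0.14, 0.35 and 0.32 and those of Hpca 0.16, 0.45 and 0.55, with 0 calls by edgeR for either gene (1 of the 6 at an unadjusted p under 0.05). The adult mean of Ncald was 1652 CPM in Inhib_7 and 687 CPM in Inhib_2, and the part of the cluster shares in its class change was not tested. Necab2 rose by 0.81 ± 0.23 (edgeR adjusted p = 0.021), from 58.1, 39.0 and 39.9 CPM to between 61.8 and 141 CPM, and this was lost without P21 replicate 2 (0.71, edgeR adjusted p = 0.079) or 3 (0.73, 0.087). In Inhib_7, the one inhibitory cluster where Necab2 could be tested, it stood at 82.5, 44.2 and 122 CPM at P21 and at 48.6, 55.4, 70.0 and 70.5 CPM in the saline libraries (-0.49 ± 0.31, edgeR adjusted p = 0.45). Its adult mean was 66.2 CPM in Inhib_7, whose share of the class was larger at P60, and 14.4 CPM in Inhib_2, whose share was smaller, and the part of these shares in the class change of Necab2 was not tested. Necab1 differed by 1.12 (edgeR adjusted p = 0.074), Pvalb by -0.82 (0.47) and Calb2 by -0.05 (0.97), and none of the 3 passed.

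Whether the change with age differed between the 2 neuronal classes was tested with limma on the difference of log2 CPM within each library. Among 8688 genes 37 were called (0.426%), and 0 of the 7 members tested were among them, of which 3 had an unadjusted p under 0.05. The class difference nearest to a call was that of Calb1, whose excitatory minus inhibitory gap went from -1.67 at P21 to -0.51 at P60 (a shift of 1.16 ± 0.23, limma adjusted p = 0.073). That of Necab2 shifted by -1.26 ± 0.32 (limma adjusted p = 0.14). For Hpca (0.10 ± 0.25) and Vsnl1 (0.09 ± 0.17) the shifts were within 1 SE of 0.

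In OPC 9.74% of genes were called higher and 10.7% lower, over the 2 P21 libraries with at least 10 such cells (31 and 12) and 5 saline libraries. Calb2 was called higher, from 59.6 and 41.4 CPM at P21 to 186, 331, 369, 383 and 418 CPM in the saline libraries (2.58 ± 0.41, edgeR adjusted p = 0.0013). Calb1 was called lower, from 363 and 221 CPM to between 0 and 12.8 CPM (-5.43 ± 0.48, edgeR adjusted p = 3.3e-05), and so were Vsnl1 (-2.11 ± 0.37, edgeR adjusted p = 0.0046) and Hpca (-3.07 ± 0.80, edgeR adjusted p = 0.043). The Vsnl1 call was lost without P21 replicate 1 (edgeR adjusted p = 0.067), and the Hpca call without any 1 of 5 libraries (P21 replicates 1 and 2, saline maintenance replicate 1, saline 48 h replicate 1 and saline 15 d replicate 2), with edgeR adjusted p from 0.072 to 0.32. In the same P21 libraries the markers of neurons, Snap25 and Syt1, summed to 3496 and 3598 CPM in OPC, against 181 to 2108 CPM in the saline libraries. Of the 51 P21 OPC 29 had a neuronal cluster, and with only the cells whose class and cluster agree no OPC test could be run. In those 22 P21 and 767 adult cells the gaps were smaller, with pooled levels at P21 and P60 of 334.5 and 243.0 CPM for Vsnl1, 88.0 and 41.9 CPM for Hpca, 158 and 332 CPM for Calb2 and 70.4 and 7.84 CPM for Calb1. The P21 levels rest on 19, 5, 9 and 4 UMIs.

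Calb1 was also called lower in endothelial cells (-2.19) and microglia (-2.54), and Vsnl1 in NF Oligo (-1.12 ± 0.32, edgeR adjusted p = 0.042). The Vsnl1 call was lost without any 1 of 5 libraries (P21 replicates 2 and 3, saline maintenance replicate 1 and both of saline 48 h), with edgeR adjusted p from 0.072 to 0.15. With matching cells alone the change of Vsnl1 in NF Oligo was 0.60 (edgeR adjusted p = 0.47) and that of Calb1 in endothelial cells -0.64 (edgeR adjusted p = 0.47), and the microglial change could not be tested. The lower calls in classes then went from 9 to 3. Ncald in mature oligodendrocytes, not called with all cells, was called higher with matching cells (1.22 ± 0.24, edgeR adjusted p = 0.0021). The markers of neurons summed to 2147 to 2953 CPM in P21 microglia and to 619 to 916 CPM in P21 NF Oligo, against 138 to 1869 and 47.9 to 248 CPM in saline libraries.

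Cocaine against saline was tested within each period in 1 fit per cluster or class. It took those of the 12 adult libraries with at least 10 cells there, which lends a common spread to groups of 2. Enough cells were found at maintenance in 15 excitatory clusters and no inhibitory cluster, and at 48 h in 19 and 1. At 15 d there were 26 and 3. The results at maintenance and 48 h thus say little of single inhibitory clusters. At maintenance 0 of 104 member tests were called by edgeR, with 9 at an unadjusted p under 0.05, where 0.00592% of all gene tests were called in either direction. At 48 h 0 of 144 were called, with 7 at that p, against 0.00585% of all tests. For the mean of the 3 periods 0 of 99 were called, with 8 at that p, against 0.0295%. DESeq2 also called 0 in each of these. The lowest adjusted p at maintenance was that of Vsnl1 in Exc_11, at 0.43 by edgeR, and for the mean that of Calb1 in Exc_4, at 0.26 by edgeR. These results do not show that the groups were alike.

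At 15 d of withdrawal Calb1 was called higher with cocaine in 5 of 17 excitatory clusters, and all 5 calls were lost by DESeq2 and without saline 15 d replicate 1. Of 187 member tests 5 were called higher and 0 lower by edgeR, all of them Calb1 in excitatory clusters, which held 126 of the tests. In these clusters 1.21% of all gene tests were called higher and 0.0215% lower. In Exc_4 the cocaine libraries stood at 489 and 594 CPM and the saline libraries of 15 d at 197 and 322 CPM. The other 8 adult libraries lay between 223 and 360 CPM, with a median of 286, so both cocaine libraries were above all other adult ones, and the change was 1.13 ± 0.19 (edgeR adjusted p = 0.00045). In Exc_11 the cocaine libraries stood at 154 and 199 CPM and the saline libraries at 90.03 and 98.5 CPM (0.96, edgeR adjusted p = 0.00070), with the other adults between 69.2 and 146 CPM. In Exc_5 they were 463 and 502 against 245 and 334 CPM (0.78, edgeR adjusted p = 0.0048). Exc_8 held 226 and 229 against 106 and 162 CPM (0.80, edgeR adjusted p = 0.017), and Exc_10 161 and 233 against 105 and 151 CPM (0.68, edgeR adjusted p = 0.016), where the other adults reach 176 CPM.

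The log2 change of Calb1 at 15 d was above 0 in all 17 excitatory clusters tested, with a median of 0.75 and a range from 0.34 to 2.59, though the cocaine and saline libraries overlapped in Exc_12, Exc_17 and Exc_26. In the inhibitory clusters Calb1 had 0 calls in 3 tests by edgeR (1 at an unadjusted p under 0.05). In Inhib_2 the cocaine libraries stood at 476 and 580 CPM and the saline libraries at 396 and 802 CPM (-0.11 ± 0.22), and in Inhib_7 they overlapped as well. In Inhib_9 they did not overlap, with cocaine libraries at 34.1 and 203 CPM and saline libraries at 0 and 12.8 CPM. These Inhib_9 levels rest on 13 to 30 cells per library. Clusters of 1 library share its cells' handling, so these values are not independent of each other. In the excitatory class the change was 0.73 and did not pass (edgeR adjusted p = 0.40). At P21 Calb1 in Exc_4 ranged from 379 to 548 CPM, and of the cocaine libraries of 15 d 1 lay within that range and 1 above it. In the other 4 clusters both cocaine libraries were below every P21 library.

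**Figure D4:**
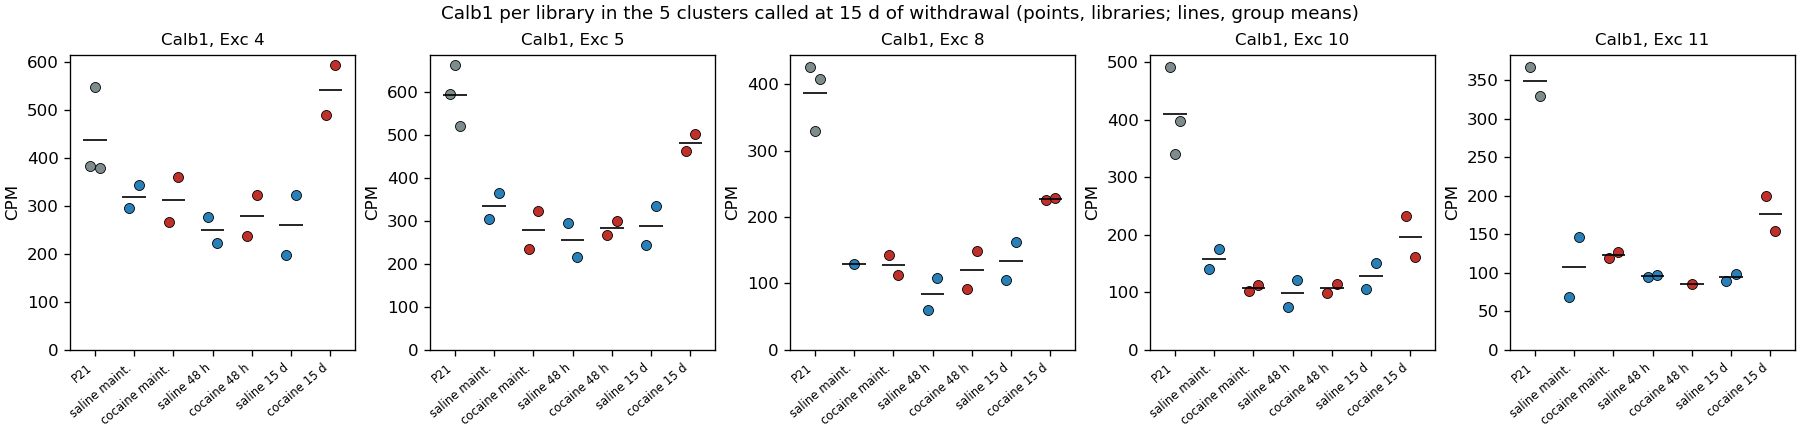
Calb1 level in CPM (y axis) per library (points) in the 5 excitatory clusters called at 15 d of withdrawal, by age and treatment group (x axis), with lines at group means. The cocaine libraries of 15 d lie above both saline libraries of that time in each cluster, and in Exc_10 the lower of them is within the reach of other adult libraries.

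These calls rest on few libraries. Without saline 15 d replicate 1, the lower of the 2 in Exc_4, none of the 5 was left (Exc_4 0.78, edgeR adjusted p = 0.25, with 0.37 in Exc_11, 0.42 in Exc_8 and 1.0 in Exc_5 and Exc_10). Without cocaine replicate 2 those in Exc_4 (0.93, edgeR adjusted p = 0.11), Exc_5 (0.69, 0.24) and Exc_8 (0.78, 0.15) were lost, and without cocaine replicate 1 those in Exc_8 (0.80, 0.25), Exc_10 (0.36, 1.0) and Exc_11 (0.76, 0.30). DESeq2 called 0 of them, with adjusted p between 0.16 and 1.0. Whether the cocaine change differed between the 3 periods was tested in the same fit, and 0 of 99 member tests were called by edgeR (12 at an unadjusted p under 0.05), against 0.0302% of all tests. The lowest adjusted p was that of Calb1 in Exc_4, at 0.11 by edgeR. In the excitatory class of the 15 d libraries the marker list of oligodendrocytes summed to 22.7 and 23.2 CPM in cocaine and 38.8 and 42.5 CPM in saline libraries, and the part of this in the Calb1 difference was not tested.

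The other EF-hand genes of the list (36 in 3 families) did not move as a block. Among the 8 other neuronal calcium sensors, 145 tests in excitatory clusters gave 11 higher and 10 lower calls with age, with a median change of -0.02, where 4.56% of all gene tests there were called higher and 6.71% lower. Kcnip3, which also binds potassium channels, rose in 10 of 26 clusters (median 0.59), while Hpcal1, the close relative of hippocalcin, fell in 7 of 25 (median -0.66). Among 17 other buffers and binders, 262 tests gave 33 higher and 16 lower calls with a median of 0.17, led by S100a6, which rose in 12 of 19 clusters (median 1.29). Among 11 calmodulin genes and calmodulin-like sensors, 210 tests gave 2 higher and 20 lower calls with a median of -0.04. The regulatory subunit of calcineurin, Ppp3r1, fell in 10 of 26 (median -0.45). In the 3 inhibitory clusters the sensors had 0 calls by edgeR in 11 tests (2 at an unadjusted p under 0.05), the buffers and binders 0 in 17 (2 at that p) and the calmodulin family 1 lower in 20, against 0.294% higher and 1.35% lower of all gene tests. In the classes the sensors had 1 higher and 4 lower in 33 tests, the buffers and binders 18 and 4 in 96, and the calmodulin family 2 and 15 in 57, against 7.63% higher and 8.79% lower of all gene tests.

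At 15 d of withdrawal Cib2 was called higher with cocaine in 7 of 24 excitatory clusters (median 0.76, above 0 in all 24). In excitatory clusters 1.21% of all gene tests were then called higher and 0.0215% lower. Cib2 was also called in the inhibitory class (1.16 ± 0.23, edgeR adjusted p = 0.0091), where 0.301% of all gene tests in classes were called higher. Hpcal1 was called higher in 3 of 23 excitatory clusters (median 0.61) and, for the mean of the 3 periods, in 1 of 13. For that mean 0.0295% of all gene tests in clusters and classes were called in either direction. S100a10 was called lower at 15 d in 1 of 26. Alternative fits are given here for the 8 members only, not for these listed genes. None of the 36 listed genes was called by edgeR at maintenance or at 48 h. In excitatory clusters the sensors, the buffers and binders and the calmodulin family then had an unadjusted p under 0.05 in 8 of 87, 11 of 161 and 3 of 129 tests at maintenance, and in 12 of 111, 17 of 206 and 4 of 160 tests at 48 h.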

How the data were processed

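UMI counts per gene and cell barcode were deposited by the authors without normalisation, made with Cell Ranger on mm9 and filtered and clustered with Seurat 2.1.0, as the submitters' processing notes list them. Only cells in the authors' table of classes and clusters were kept. Doublets were treated only by the authors' filters. No value column was left unmapped. The 8 genes and the lists were chosen with earlier results of these data known.

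After removal of 13 mitochondrial genes and 85 genes of ribosomal proteins, UMIs were summed per library and cluster or class with at least 10 cells. Ages and treatments were tested with edgeR 4.0.16 (robust quasi-likelihood test, TMM scaling, its filter on low counts) and Benjamini-Hochberg adjustment over all genes of a unit, and class differences with limma 3.58.1 (prior count 1). DESeq2 1.42.0, other scalings, filters, P60 groups and left-out libraries were alternatives. Scripts were tested on simulated data. R 4.3.3 and Python 3.11.15 were used.

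Genes were named by rule: the 8 members, the 3 genes most like each, the most often called gene of each list with age, and every listed gene called with cocaine. Hpcal1 with age was named after its values were seen. Adult libraries of a group are pools of mice, so p-values between treatments measure the spread between pools. For P21 the mice of each library are not known, so p-values of age may not rest on independent pools. Precision follows depth, from 8375172 to 42892922 UMIs a library.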

Additional observations from a re-analysis of the deposited data

Results flagged for a closer look

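Necab2 in the excitatory class stood at 16.8 CPM in saline maintenance replicate 1, apart from the other 5 saline libraries of P60 at 6.72 to 10.3 CPM. Of 25 groups of up to 6 saline libraries examined this was the one flagged, and chance flags about 1 group in 20.

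Necab1 changed with age in opposite directions in excitatory clusters, with every saline library of P60 on the stated side of every P21 library. The log2 change was 0.69 in Exc_8, -1.32 in Exc_18 and -1.41 in Exc_20. The difference between these clusters was not tested.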

How the results depend on the processing

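Of 92 single results 45 kept their direction and side of the threshold under every alternative run, and 1 reversed (Vsnl1 in NF Oligo with age, -1.12 and 0.60 with only cells whose class and cluster agree). The 45 include 7 differences between the neuronal classes that were not called and stayed so. Not every alternative could be run for each result, as with matching cells in OPC. With the saline libraries of 15 d as the only P60 group, excitatory clusters had 30 higher calls with age in place of 47 (62 with no fold cutoff), and inhibitory clusters 0 higher and 1 lower in place of 1 and 0. With no filter on low counts there were 34 lower calls in excitatory clusters (16 with it), 1 lower in inhibitory clusters (0), 13 lower in classes (9), 1 at 48 h (0), 11 higher at 15 d (5) and 2 for period dependence (0). With at least 30 cells excitatory clusters had 10 lower calls and classes 5 in place of 9, and with all 12 adult libraries inhibitory clusters had 1 lower. DESeq2 gave 2 higher calls in inhibitory clusters and 0 at 15 d. With only cells whose class and cluster agree, an alternative chosen after seeing the data, classes had 3 lower calls. The cause of these shifts was not tested.

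Leaving out 1 library gave 36 to 48 higher and 11 to 19 lower calls with age in excitatory clusters, 0 to 3 and 0 to 1 in inhibitory clusters, and 5 to 7 and 6 to 10 in classes. It gave 0 to 1 calls at maintenance (1 without cocaine maintenance replicate 2), 0 to 2 at 48 h (2 without cocaine 48 h replicate 1), 0 for the mean of the periods and for the class difference, and 0 to 5 for period dependence (5 without saline 15 d replicate 2). At 15 d there were 1 to 9 higher calls and 0 to 1 lower, with 1 higher without saline 15 d replicate 1, 9 without saline 15 d replicate 2 and 3 without either cocaine library. In inhibitory clusters there were 3 higher without saline 15 d replicate 2 and 0 without P21 replicate 2, P21 replicate 3 or saline 48 h replicate 1. No paired analysis was possible because the replicate numbers follow accession order and pair no libraries. Low UMI totals limit Pvalb, Calb2 and Necab2 in most clusters.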
